A study of Mus musculus with 4 samples.

Results

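The genes described here are 10 members of the circadian clock, read across 4 RNA-seq libraries of mouse sympathetic ganglia. The 10 genes are *Per1*, *Per2*, *Per3*, *Cry1*, *Arntl*, *Clock*, *Nr1d1*, *Nr1d2*, *Dbp* and *Tef*, matched by symbol, and all 10 were listed in all 4 libraries, out of 17667 genes listed in at least 1 library and 15275 listed in all 4. The question was whether the pools of ganglia differed in the phase of the clock, and hence whether clock genes could separate the genotypes or the pools.

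The clock of mammalian cells is a loop in which CLOCK and ARNTL (also called BMAL1) bind E-boxes and switch on the *Per* and *Cry* genes, whose proteins return to repress CLOCK and ARNTL. A stabilising loop runs through *Nr1d1* and *Nr1d2*, which encode the repressors REV-ERB alpha and REV-ERB beta and act on ROR response elements, the best known of them at *Arntl*. DBP and TEF, of the PAR bZIP family, bind D-boxes and carry the rhythm to output genes, so that *Per*, *Nr1d* and *Dbp* transcripts peak in a different part of the day from *Arntl* and *Clock*, while *Cry1* comes late.

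The ganglia came from thoracic levels T1 to T4 of C57BL/6 mice aged 12 weeks that had spent 1 day at 5 °C, and each library was 1 pool from 6 mice. WT_1 and WT_2 were pools of wild-type mice. TRKC+/- mice carry 1 functional copy of *Ntrk3*, the receptor gene for neurotrophin 3 (NT-3), and AdNTF3-Tg mice overexpress NT-3 in adipocytes from the adiponectin promoter, so that the transgene is not driven in the neurons sampled. Mice were kept in a light-dark cycle, and the hour at which ganglia were taken was not given in the sources used here. Each library held between 8665955 and 8894985 reads on genes. The 11 markers of sympathetic neurons were all listed in every library, with *Th*, the rate-limiting enzyme of catecholamine synthesis, between 2576 and 2753 FPKM. *Ntrk3* was at 2.45 FPKM in WT_1, 2.52 in WT_2, 2.72 in the library labelled TRKC+/- and 2.32 in AdNTF3-Tg (76 to 91 reads), and was therefore not lower in the library of that label. The study itself, in a separate measurement, reported reduced expression of this gene (*Trkc*) in sympathetic ganglia of TRKC+/- mice relative to wild-type littermates. Reads were counted over the whole gene, and which part of *Ntrk3* the allele alters is not given in the sources used here. *Ntf3*, the gene of NT-3, had 2 reads in the library labelled TRKC+/- and was not listed in the other 3.

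FPKM scales the reads of a gene to its length and to the reads of the library, so levels of different genes can be set side by side. Log2 ratios between libraries are of FPKM plus 0.1. The 95% counting intervals (exact, Clopper-Pearson) printed beside them are of the ratio of reads per library total, so they need not centre on the FPKM ratio. These intervals and all floors cover counting error only. A ratio counted as past the cutoff at an absolute log2 value of at least 0.5. The labels do not say which WT pool belongs with which genotype, so each genotype was set against each WT library. Names given to the deposited tables hint at WT_1 for the library labelled TRKC+/- and WT_2 for AdNTF3-Tg, and were not used to group libraries. Fewer cells of a type and less RNA per cell cannot be told apart in such pools.

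Promoter sequences of the clock genes are shown for the elements through which the loop is wired. RefSeq start sites (sequences from the table on GRCm38.p6) were found for 9 of the 10 genes, in 14 windows of 250 bases before and 50 bases after a start, and each window matched the NCBIM37 (mm9) genome exactly at 1 place, whose coordinates are given. *Per2* had no usable entry in the start sites or the GENCODE annotation used here, so neither its promoter nor its gene body is given. Both strands were searched for the E-box CACGTG (in 7.15% of 32851 promoter windows), the E'-box CACGTT (4.68%), the D-box TTATGTAA (0.938%), the core of the cAMP response element TGACGT (7.51%) and the ROR response element ANTNGGTCA (2.24%). Capitals mark the matches in the 250 bases before the start, written 5′ to 3′ on the strand of the gene.
Per3 (chr4:150418775-150419024, minus strand), 2 D-boxes: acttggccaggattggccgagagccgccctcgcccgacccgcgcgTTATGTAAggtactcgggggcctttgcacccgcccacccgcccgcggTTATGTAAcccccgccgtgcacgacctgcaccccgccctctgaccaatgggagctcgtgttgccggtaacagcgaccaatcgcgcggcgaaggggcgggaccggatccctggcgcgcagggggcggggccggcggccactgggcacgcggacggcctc
Cry1 (chr10:84647800-84648049, minus strand), an E'-box on the other strand and an E-box: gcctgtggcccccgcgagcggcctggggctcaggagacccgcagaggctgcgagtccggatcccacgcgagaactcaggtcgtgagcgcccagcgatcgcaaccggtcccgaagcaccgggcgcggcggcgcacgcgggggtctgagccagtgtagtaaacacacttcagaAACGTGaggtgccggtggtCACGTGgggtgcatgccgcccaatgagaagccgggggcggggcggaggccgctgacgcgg
Nr1d1 (chr11:98636692-98636941, minus strand), an E'-box on the other strand: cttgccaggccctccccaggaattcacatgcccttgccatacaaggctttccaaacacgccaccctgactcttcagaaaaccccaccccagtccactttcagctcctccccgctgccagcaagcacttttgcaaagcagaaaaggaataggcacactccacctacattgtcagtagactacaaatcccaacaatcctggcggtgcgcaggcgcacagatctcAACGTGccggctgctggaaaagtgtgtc
Tef, the downstream start (chr15:81641594-81641843, plus strand), an E-box: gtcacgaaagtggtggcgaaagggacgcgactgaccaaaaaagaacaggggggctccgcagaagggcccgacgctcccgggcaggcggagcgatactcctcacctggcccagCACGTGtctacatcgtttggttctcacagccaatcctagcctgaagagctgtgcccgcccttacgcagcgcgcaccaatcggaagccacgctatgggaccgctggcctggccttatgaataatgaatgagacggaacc
Per1, the downstream start (chr11:68913404-68913653, plus strand), a cAMP response element core: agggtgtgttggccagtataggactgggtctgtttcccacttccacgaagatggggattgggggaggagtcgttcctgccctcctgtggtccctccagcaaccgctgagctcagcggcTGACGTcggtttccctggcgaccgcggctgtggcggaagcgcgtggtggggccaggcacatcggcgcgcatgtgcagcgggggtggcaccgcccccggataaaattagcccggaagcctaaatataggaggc
Per1, 30 bases around a match before the upstream start (chr11:68912275-68912304, plus strand), an E-box: cacccaagtcCACGTGcagggatgtgtgtg
Arntl, 30 bases around a match after its later start (chr7:120351043-120351072, plus strand), a ROR response element: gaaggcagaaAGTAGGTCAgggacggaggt
The upstream start of *Tef* held an E-box as well, and the windows of *Dbp*, *Nr1d2* and *Clock* held none of these letters. A match describes the letters of the window and does not show that a factor binds there. In the GENCODE annotation the gene bodies lie, on NCBIM37, at chr11:68908719-68923462 for *Per1*, chr4:150377761-150418774 for *Per3*, chr10:84594447-84647799 for *Cry1*, chr7:120350979-120457636 for *Arntl*, chr5:76639992-76733817 for *Clock*, chr11:98629246-98636647 for *Nr1d1*, chr14:19036568-19071641 for *Nr1d2*, chr7:52960458-52965525 for *Dbp* and chr15:81632851-81657291 for *Tef*.

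All 10 clock genes were expressed in the ganglia, from 2.34 to 42.0 FPKM, with 77 to 1564 reads per gene and library. *Tef* was highest in every library, followed by *Nr1d1* and *Per1*, whose ranges over the libraries overlapped. *Dbp* and *Nr1d2*, between 9.87 and 16.5 FPKM, formed the next pair and overlapped as well, and the highest *Dbp* value met the lowest *Per1* value. *Arntl*, *Clock*, *Per3*, *Cry1* and *Per2* were lowest, between 2.34 and 6.49 FPKM, and each of these ranges overlapped its neighbour's in that order.

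**Figure D1:**
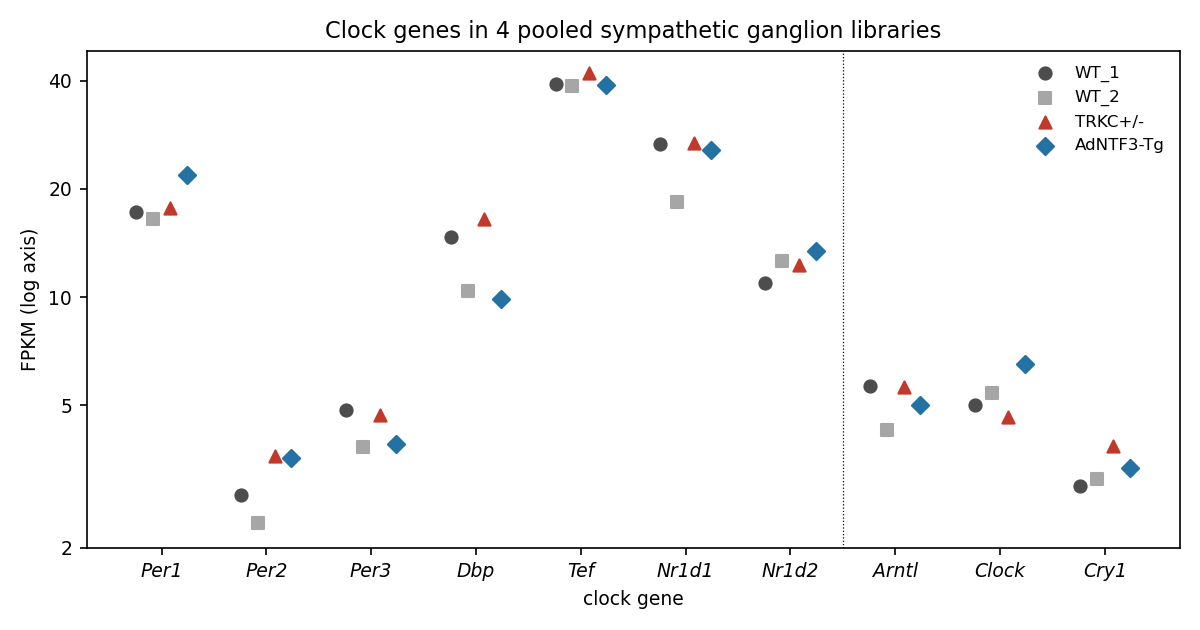
FPKM (log axis) of the 10 clock genes in WT_1, WT_2, the library labelled TRKC+/- and AdNTF3-Tg, 1 point per library. The dotted line separates *Arntl*, *Clock* and the late *Cry1*, at the right, from the other 7 genes. *Tef* sits near 40 in all 4 libraries, *Nr1d1* is lowest in WT_2 at 18.4, and *Dbp* is near 10 in WT_2 and AdNTF3-Tg and at 14.7 or above in the other 2.

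Among the activators, *Arntl* was at 5.65 FPKM in WT_1, 4.27 in WT_2, 5.61 in the library labelled TRKC+/- and 5.01 in AdNTF3-Tg (108 to 143 reads). The WT pools were its highest and lowest libraries, so neither genotype left the WT range, and WT_1 was higher than WT_2 by 0.40 on the log2 scale (counting interval 0.04 to 0.79). *Clock*, the partner of *Arntl*, was at 4.99 in WT_1, 5.39 in WT_2, 4.64 in the library labelled TRKC+/- and 6.49 in AdNTF3-Tg (307 to 424 reads). *Clock* was above both WT libraries in AdNTF3-Tg, by 0.37 over WT_1 (0.16 to 0.59) and 0.26 over WT_2 (0.06 to 0.48), and under both in the library labelled TRKC+/-, with intervals that included 0. These 2 partners therefore did not share an order of libraries.

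Of the repressors, *Per1*, which also answers directly to cAMP and glucocorticoid signals, was at 17.2 FPKM in WT_1, 16.5 in WT_2, 17.7 in the library labelled TRKC+/- and 21.9 in AdNTF3-Tg (670 to 889 reads). AdNTF3-Tg stood above the other 3 libraries, which lay between 16.5 and 17.7 FPKM, and exceeded WT_1 by 0.35 (0.20 to 0.49) and WT_2 by 0.41 (0.27 to 0.56), short of the cutoff. *Per2* was at 2.80 in WT_1, 2.34 in WT_2, 3.61 in the library labelled TRKC+/- and 3.55 in AdNTF3-Tg (120 to 186 reads). Both genotypes were above both WT pools, and against WT_2 both passed the cutoff, at 0.61 (0.29 to 0.97) for the library labelled TRKC+/- and 0.58 (0.26 to 0.95) for AdNTF3-Tg, which share that WT library. Against WT_1 the values were 0.36 (0.04 to 0.69) and 0.33 (0.01 to 0.67).

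*Per3* was at 4.85 FPKM in WT_1, 3.83 in WT_2, 4.70 in the library labelled TRKC+/- and 3.89 in AdNTF3-Tg (200 to 249 reads). Here the WT pools again spanned the range, with WT_1 above WT_2 by 0.33 (0.07 to 0.62). The 3 *Per* genes were all lowest in WT_2 and had 3 different orders of the other libraries. Part of that order was within counting error, since the intervals of the library labelled TRKC+/- over WT_1 included 0 for *Per1* and *Per3*. *Cry1*, the shallowest of the 10 genes, was at 2.97 in WT_1, 3.12 in WT_2, 3.85 in the library labelled TRKC+/- and 3.33 in AdNTF3-Tg (77 to 102 reads). Its highest library exceeded its lowest by 0.36, with a counting interval from -0.07 to 0.81, so no difference in *Cry1* was detectable at this depth.

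In the stabilising loop, *Nr1d1* was at 26.7 FPKM in WT_1, 18.4 in WT_2, 26.8 in the library labelled TRKC+/- and 25.7 in AdNTF3-Tg (417 to 613 reads). WT_2 stood apart below the other 3, by 0.53 against WT_1 (0.37 to 0.73), 0.54 against the library labelled TRKC+/- (0.37 to 0.73) and 0.48 against AdNTF3-Tg (0.30 to 0.67), while the library labelled TRKC+/- and AdNTF3-Tg differed from WT_1 by 0.01 and -0.06. *Nr1d1* shares 263 of its 3124 exon bases with *Thra* on the opposite strand, and whether the counting used strand is not given in the sources used here. *Nr1d2*, its paralog, was at 10.9 in WT_1, 12.6 in WT_2, 12.3 in the library labelled TRKC+/- and 13.5 in AdNTF3-Tg (436 to 543 reads). WT_2 was not low for *Nr1d2*, which was lowest in WT_1, and the largest difference was 0.30 between AdNTF3-Tg and WT_1 (0.11 to 0.48).

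For the D-box factors, *Dbp* was at 14.7 FPKM in WT_1, 10.4 in WT_2, 16.5 in the library labelled TRKC+/- and 9.87 in AdNTF3-Tg (140 to 238 reads). *Dbp* had the widest spread of the 10 genes, 1.67-fold or 0.74 on the log2 scale between the library labelled TRKC+/- and AdNTF3-Tg (0.44 to 1.06). The library labelled TRKC+/- exceeded WT_2 by 0.66 (0.38 to 0.98) and AdNTF3-Tg was under WT_1 by 0.57 (ratio -0.57, interval -0.91 to -0.28). Each genotype differed from the other WT pool by less, 0.17 over WT_1 (-0.12 to 0.43) and -0.07 against WT_2 (-0.42 to 0.27), and WT_1 exceeded WT_2 by 0.50 (0.21 to 0.84). Of its 2945 exon bases, 491 overlap *Sphk2* on the opposite strand. *Tef*, in contrast, was at 39.3 in WT_1, 38.7 in WT_2, 42.0 in the library labelled TRKC+/- and 39.0 in AdNTF3-Tg (1423 to 1564 reads). Its spread of 0.12 was the smallest of the 10 genes, and WT_1, WT_2 and AdNTF3-Tg were within 0.02 of each other.

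**Figure D2:**
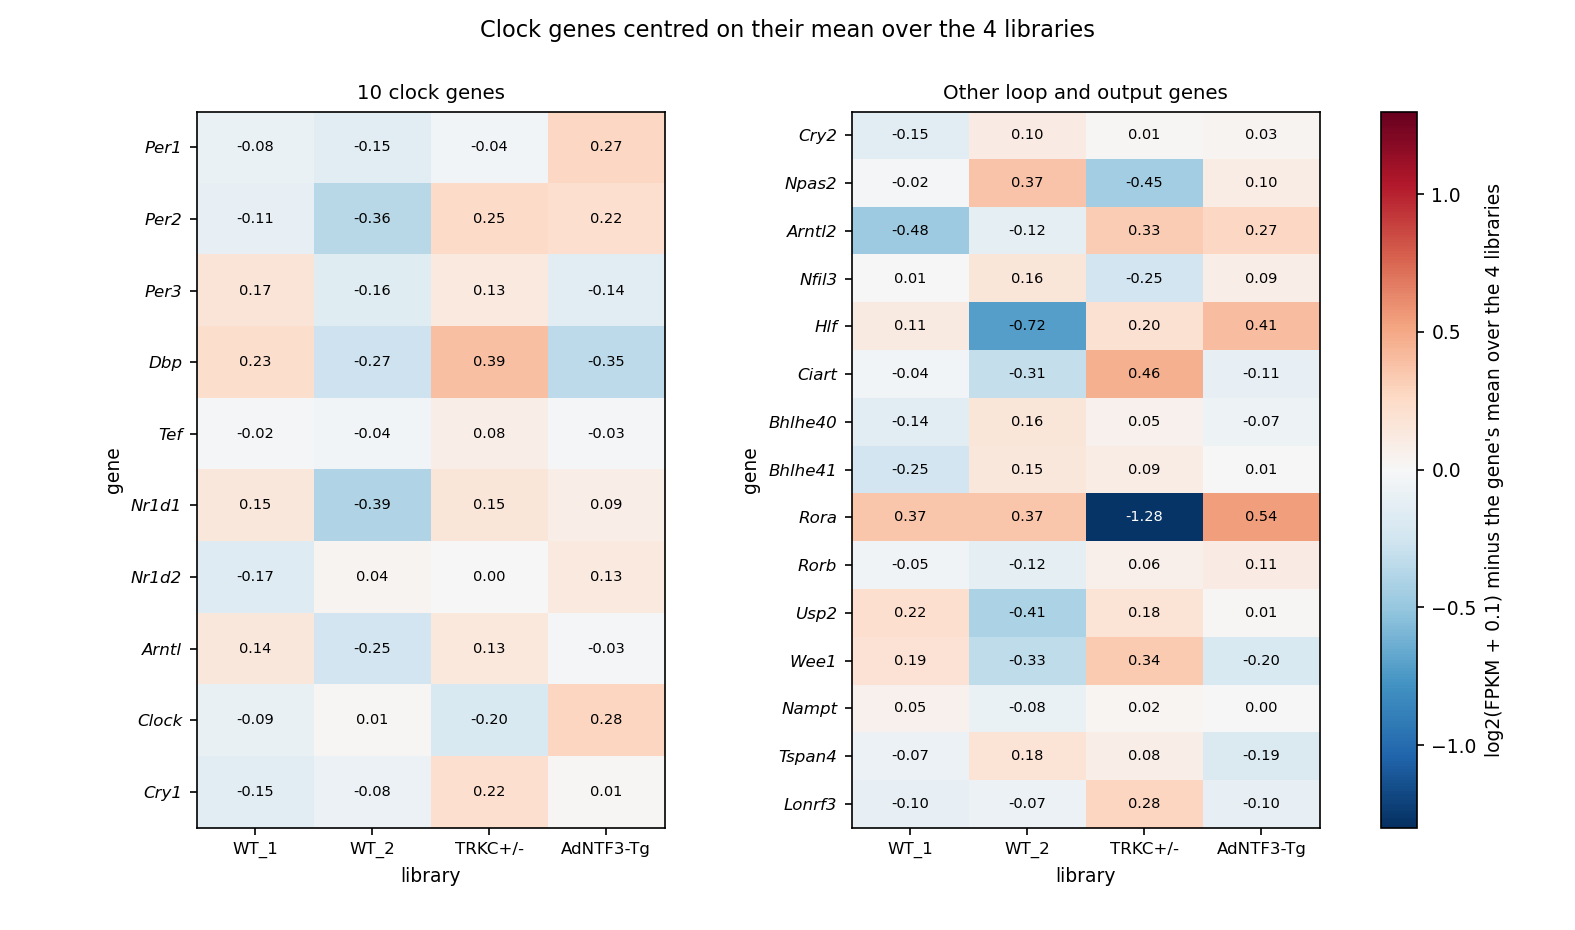
Each gene's log2(FPKM + 0.1) minus its mean over the 4 libraries, for the 10 clock genes (left) and 15 other genes of the loop and its outputs (right), with 1 column per library. WT_2 is negative for 8 of the 10 clock genes, down to -0.39 for *Nr1d1*. *Rora*, at -1.28 in the library labelled TRKC+/-, rests on 1 to 7 reads.

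The 3 genes whose highest library was past the cutoff over the lowest were *Per2*, *Dbp* and *Nr1d1*, 3 of 10 against 29% of all 15275 genes, and 2 of 10 with a pseudocount of 1, without *Per2*, against 12.1%. Genes with few reads spread more through counting alone, and 7.96% of the 10190 genes that averaged 87 reads or more, the depth of *Cry1*, had such a spread. That narrower background was chosen after the data were seen. The median spread was 0.404 for the clock genes, 0.312 for all genes and 0.231 for the deeper genes. The 2 extreme libraries of a gene are picked for being extreme, so these spreads are a description and not a test. All 3 genes were low in WT_2, at -0.36 for *Per2*, -0.39 for *Nr1d1* and -0.27 for *Dbp* from the mean of the libraries. They did not agree on the other libraries. *Per2* was lowest in WT_2 and high in both genotypes, *Nr1d1* was low in WT_2 alone, and *Dbp* was low in WT_2 and in AdNTF3-Tg.

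WT_2 was the lowest library for 6 of the 10 clock genes and the highest for none, where it was lowest for 25.8% and highest for 23.4% of all genes. The library labelled TRKC+/- was highest for 5 (23.4% of all genes) and AdNTF3-Tg for 3 (26.9%). In the library labelled TRKC+/-, 6 clock genes were above both WT pools, 1 was below both and 3 were between them. Of all genes, 31.9% were above both WT pools in that library and 30.8% below both, 62.6% in all. In AdNTF3-Tg, 5 clock genes were above both WT pools, 1 was below both and 4 were between, where 33.7% of all genes were above both and 34% below both, 67.6% in all. The 7 and 6 of 10 clock genes outside the WT range were near the shares of all genes, but more of them lay above it than below it, which was not tested.

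Read pair by pair, the library labelled TRKC+/- against WT_1 had 0 of 10 clock genes past the cutoff (10.7% of all genes, 1.08% of those with at least 87 reads), and log2 ratios from -0.10 to 0.36. Only *Per2* had a counting interval that left out 0, where 17.8% of the genes of that depth did. Against WT_2 the same library had 3 past the cutoff, *Per2*, *Dbp* and *Nr1d1* (12.7% and 2.04%), or 2 with a pseudocount of 1, where *Per2* fell to 0.465 (3.88% of all genes), and 6 of 10 intervals left out 0 (24.7%), with *Per3*, *Tef* and *Arntl* beside those 3, all higher than in WT_2. The count of clock genes past the cutoff thus went from 0 to 3 with the choice of WT pool.

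AdNTF3-Tg against WT_1 had 1 clock gene past the cutoff, *Dbp*, which was lower (13.9% of all genes, 3.12% of those with at least 87 reads), and 6 intervals that left out 0 (33%). Of those 6, *Per1*, *Per2*, *Nr1d2* and *Clock* were higher in AdNTF3-Tg and *Per3* and *Dbp* were lower. Against WT_2 it had 1 past the cutoff, *Per2*, which was higher (13.3% and 2.13%) and fell under the cutoff with a pseudocount of 1 (3.8% of all genes), and 4 intervals that left out 0 (25.5%), those of *Per1*, *Per2*, *Nr1d1* and *Clock*, all higher in AdNTF3-Tg. *Per1*, *Per2* and *Clock* were thus the genes with intervals above 0 against each WT pool. The WT pools themselves had 1 clock gene past the cutoff, *Nr1d1*, joined by *Dbp* with a pseudocount of 0.01 (13.4% and 2.46%), and 5 of 10 intervals that left out 0 (25.1%), those of *Per3*, *Dbp*, *Nr1d1* and *Arntl*, higher in WT_1, and of *Nr1d2*, lower in WT_1.

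**Figure D3:**
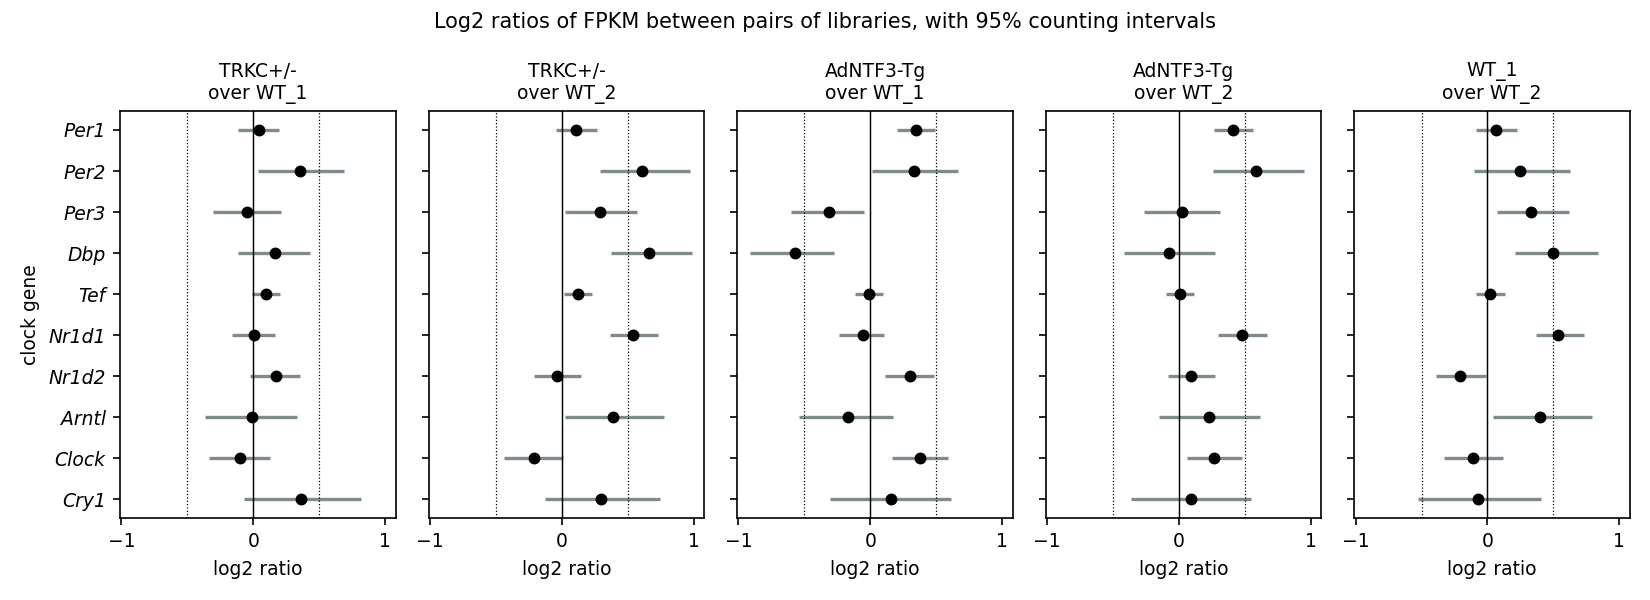
Log2 ratios of FPKM + 0.1 for the 10 clock genes in 5 pairs of libraries (points), with 95% counting intervals (bars), a solid line at 0 and dotted lines at the cutoff of 0.5 in each direction. The ratios against WT_2 lie further to the right than those against WT_1, with medians of 0.29 and 0.07 for the library labelled TRKC+/- and 0.16 and 0.07 for AdNTF3-Tg.

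A test across all genes was run on the expected counts with edgeR's quasi-likelihood method and Benjamini-Hochberg adjustment, with each genotype against the 2 WT pools (n = 2 against n = 1, 1 residual degree of freedom). The study names respective WT controls for the 2 genotypes, so the WT pools may come from different lines. Here they were treated as 1 group. The single library of each genotype was assumed to vary like the WT pools, and the p-values measure only the spread between these pools. No clock gene passed an adjusted p of 0.05 in either comparison, with 1 of 14156 genes called for the library labelled TRKC+/- (0.00706%) and 0 for AdNTF3-Tg (0%). The gene called was *Ucp1*, the uncoupling protein of brown fat, with 655, 672 and 110 reads in WT_1, WT_2 and the library labelled TRKC+/-, named here after its value was seen. Without adjustment 273 genes (1.93%) and 832 genes (5.88%) had a p under 0.05 in edgeR, among them 1 clock gene, *Per2*, for the library labelled TRKC+/- and 3, *Per1*, *Per2* and *Clock*, for AdNTF3-Tg, which became 0 and 1 without the filter on low counts. DESeq2 called 2 and 0 genes after adjustment, and 21 genes (0.119%) and 64 genes (0.363%), 0 of them clock genes, had an unadjusted p under 0.05 there.

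For the library labelled TRKC+/-, edgeR gave *Per2* a log2 fold change of 0.49 against the WT pools (SE 0.42 by DESeq2), *Dbp* 0.39 (SE 0.41) and *Cry1* 0.34 (SE 0.55), the highest of the 10, and *Clock* the only negative value, -0.16. The adjusted p was 0.999 for all 10 genes. For AdNTF3-Tg, *Per2* had 0.47 (SE 0.42), *Per1* 0.39 (SE 0.21) and *Clock* 0.33 (SE 0.29), each with an adjusted p of 0.817, and *Dbp* had -0.35 (SE 0.42) with an adjusted p of 0.819. The other 6 lay between -0.15 and 0.20, with adjusted p between 0.819 and 0.992. These values moved with the WT library used. Without WT_1 and without WT_2 in turn, *Dbp* was 0.65 and 0.16 for the library labelled TRKC+/- and -0.08 and -0.57 for AdNTF3-Tg, and *Nr1d1* was 0.53 and 0.005 for the former and 0.47 and -0.05 for the latter. *Per2* stayed between 0.35 and 0.60 in both comparisons, and *Per1* between 0.36 and 0.41 and *Clock* between 0.26 and 0.39 for AdNTF3-Tg. In the library labelled TRKC+/- *Clock* was -0.23 and -0.10. For AdNTF3-Tg *Nr1d2* was 0.09 and 0.31. The direction of *Per3* and *Arntl* turned with the WT pool left out in both comparisons, that of *Nr1d2* in the first and that of *Nr1d1* in the second.

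The phase of the clock was read from the mean log2 level of *Per1*, *Per2*, *Per3*, *Dbp*, *Tef*, *Nr1d1* and *Nr1d2* minus that of *Arntl*, *Clock* and *Cry1*. *Cry1* is driven through E-boxes too and was set with *Arntl* and *Clock* for its late peak, so the contrast is given without it as well. The contrast was 1.46 in WT_1, 1.32 in WT_2, 1.49 in the library labelled TRKC+/- and 1.34 in AdNTF3-Tg, and 1.39 ± 0.10 (SD, n = 2) over the WT pools. The 4 libraries spanned 0.171, with AdNTF3-Tg inside the WT range and the library labelled TRKC+/- 0.03 above it. The largest difference, 0.17 between the library labelled TRKC+/- and WT_2, had a counting interval from -0.05 to 0.39, and that between the WT pools was 0.14 (-0.08 to 0.37). All 5 pairs had intervals that included 0.

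Without *Cry1* the contrast was 1.19 in WT_1, 1.12 in WT_2, 1.36 in the library labelled TRKC+/- and 1.09 in AdNTF3-Tg, a span of 0.266. The library labelled TRKC+/- was then 0.17 above WT_1 (-0.05 to 0.39) and 0.24 above WT_2 (0.01 to 0.47), an interval that left out 0, and AdNTF3-Tg was below both WT pools, by intervals that included 0. The library labelled TRKC+/- was thus above both WT pools with and without *Cry1*, the gene with the fewest reads, whereas AdNTF3-Tg went from inside the WT range to below it. With 1 library per genotype these intervals hold counting error only, and neither version of the contrast has a replicate check within a genotype.

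Centred on the 4 libraries, the mean of the 7 genes on the plus side was 0.02 in WT_1, -0.19 in WT_2, 0.14 in the library labelled TRKC+/- and 0.03 in AdNTF3-Tg, and that of *Arntl*, *Clock* and *Cry1* was -0.03, -0.11, 0.05 and 0.09. Both means were lowest in WT_2, rather than opposed. Single ratios, for which no counting interval was computed, gave mixed orders. *Dbp* over *Arntl* was 2.61 in WT_1, 2.43 in WT_2, 2.94 in the library labelled TRKC+/- and 1.97 in AdNTF3-Tg, whereas *Nr1d1* over *Arntl* was 4.72, 4.31, 4.78 and 5.12, highest where the *Dbp* ratio was lowest. *Per1* over *Arntl* was 3.05, 3.86, 3.16 and 4.38 in the same order of libraries. *Arntl* had 108 to 143 reads, and its own interval for the library labelled TRKC+/- over WT_1 ran from -0.36 to 0.33. On the log2 scale *Nr1d1* over *Arntl* ran only from 2.08 to 2.33. Whether these orders exceed counting error was not tested. The mean of the 7 genes spanned 0.327 over the libraries, under the span of 0.5 set for a search of genes of like pattern, so none are named.

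**Figure D4:**
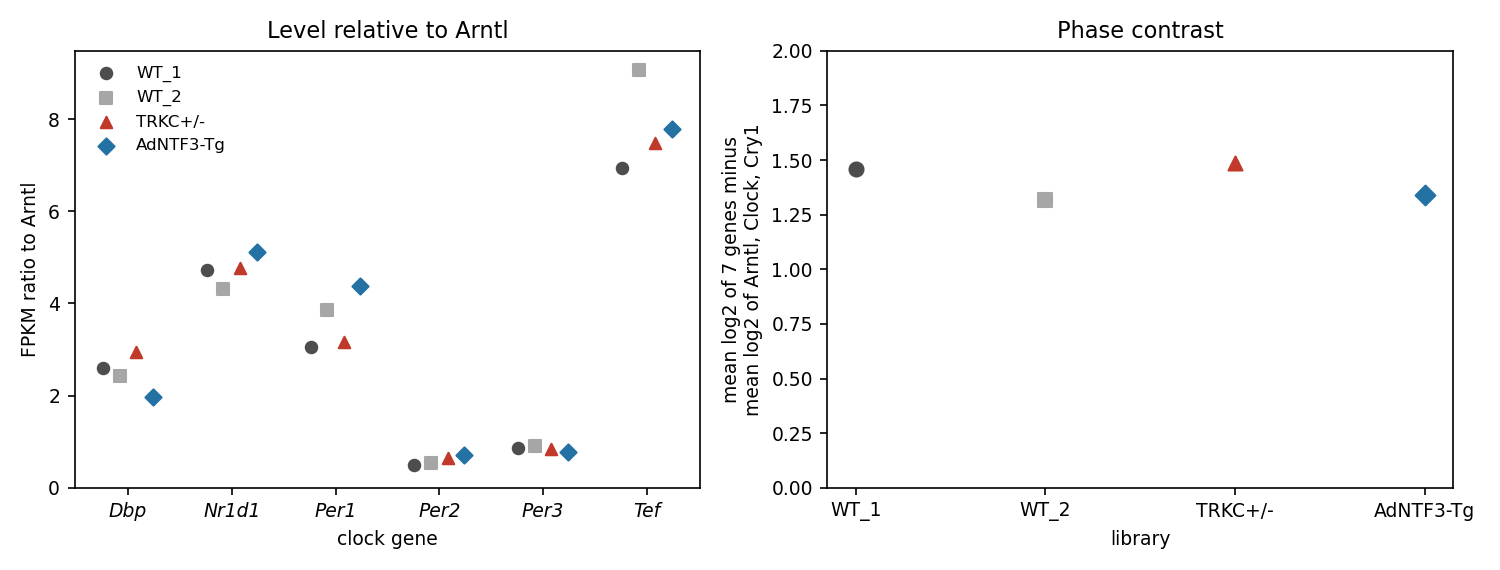
Left, FPKM of 6 of the 7 plus-side clock genes divided by that of *Arntl*, 1 point per library; right, the mean log2(FPKM + 0.1) of the 7 plus-side genes minus the mean of *Arntl*, *Clock* and *Cry1*. The contrast lies between 1.32 and 1.49 in all 4 libraries. The ratios of *Dbp*, *Nr1d1* and *Per1*, shown without counting intervals, put the libraries in different orders.

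Another 10 genes of the loop were examined, of which 5 had a spread past the cutoff (50%, against 29% of all genes), with a median of 0.593. All 5 averaged fewer than 87 reads, and 71.3% of the genes under that depth had such a spread. The share of 29% is the background of the lists that follow as well. *Hlf*, the third PAR bZIP factor, was at 1.11 FPKM in WT_1, 0.58 in WT_2, 1.18 in the library labelled TRKC+/- and 1.38 in AdNTF3-Tg (29 to 68 reads), and its lowest library was WT_2, as for *Nr1d1*. AdNTF3-Tg exceeded WT_2 in *Hlf* by 1.12 (0.59 to 1.92). *Ciart*, a repressor of CLOCK and ARNTL, was at 3.43, 2.81, 4.88 and 3.25 in the same order (33 to 58 reads), with a spread of 0.78 (0.17 to 1.47). The others past the cutoff were *Npas2*, *Arntl2* and *Rora*, which had 1 to 17 reads and intervals that included 0.

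The other 5 genes of the loop stayed under the cutoff. *Cry2*, the other cryptochrome, was at 24.6 FPKM in WT_1, 29.3 in WT_2, 27.4 in the library labelled TRKC+/- and 27.9 in AdNTF3-Tg, and *Bhlhe40*, a repressor that competes for E-boxes, was at 16.2, 20.01, 18.6 and 17.1. Both were lowest in WT_1 and highest in WT_2, the reverse of *Arntl*. *Bhlhe41* (2.90 to 3.84 FPKM) had the same lowest and highest library, *Nfil3*, a repressor at D-boxes, ranged from 5.16 to 6.89, and *Rorb*, an activator at ROR response elements, ranged from 1.99 to 2.35.

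Of 10 genes that modify or degrade clock proteins, 1 had a spread past the cutoff, *Fbxl21* (13 to 28 reads), and the median was 0.173. The casein kinases that phosphorylate PER proteins were nearly level, *Csnk1d* from 50.8 to 51.7 FPKM and *Csnk1e* from 34.2 to 35.2, with spreads of 0.03 and 0.04. The range was 30.8 to 37.2 for *Csnk2a1*, 32.0 to 36.3 for *Gsk3b*, 14.2 to 16.0 for *Btrc*, 41.9 to 45.7 for *Fbxw11*, 72.8 to 76.6 for *Nono*, 2.0 to 2.50 for *Timeless* and 5.76 to 8.04 for *Tipin*.

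Among 5 output genes, 2 had a spread past the cutoff, and both were lowest in WT_2. *Usp2*, a deubiquitinase gene, was at 4.78 FPKM in WT_1, 3.04 in WT_2, 4.65 in the library labelled TRKC+/- and 4.12 in AdNTF3-Tg (95 to 153 reads), with a spread of 0.64 (0.34 to 1.10). *Wee1*, a cell cycle kinase gene, was at 1.98, 1.35, 2.20 and 1.49 in that order (40 to 66 reads), with a spread of 0.67 (0.13 to 1.32). *Wee1* thus had the order of libraries of *Dbp* apart from its lowest. *Nampt*, of NAD synthesis, ranged from 15.0 to 16.5 FPKM, *Tspan4* from 14.1 to 18.2 and *Lonrf3* from 0.36 to 0.50.

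Signals that can set or mask clock transcripts were read from 3 more lists. Of 11 glucocorticoid-responsive genes, 4 had a spread past the cutoff, *Zbtb16*, *Mt1*, *Mt2* and *Pdk4*, named after their values were seen. The deepest of the list stayed under it, *Cdkn1a* at 72.7 to 83.0 FPKM, *Tsc22d3* at 63.2 to 72.7 and *Sgk1* at 28.7 to 36.0. Of 13 immediate early genes, 6 passed. Among them *Fosb*, *Egr2*, *Egr3* and *Arc*, named after their values were seen, had 3 to 57 reads. Of all genes averaging fewer than 87 reads, 71.3% passed. *Fos* was at 18.1 FPKM in WT_1, 28.2 in WT_2, 23.2 in the library labelled TRKC+/- and 28.3 in AdNTF3-Tg, a spread of 0.64 (0.43 to 0.84), *Nr4a1* was at 35.8, 41.4, 35.9 and 46.6, and *Jun* ranged from 16.7 to 19.1. The list had no common order, with 6 of its genes highest in WT_2 and 5 in AdNTF3-Tg. Of 8 temperature-responsive genes, 2 passed, *Rbm3* and *Hspa1b*, also named after their values were seen, and *Hspa1b* shares reads with its near-identical copy *Hspa1a*. *Rbm3*, a cold-inducible RNA-binding protein, was at 128 FPKM in WT_1, 177 in WT_2, 110 in the library labelled TRKC+/- and 136 in AdNTF3-Tg, while *Hspa8* (2029 to 2066), *Hsp90aa1* (559.6 to 605.3) and *Hsph1* (57.9 to 64.0) had spreads of at most 0.14.

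Markers of several other cell types also had their lowest sums in WT_2, the library that was lowest for 6 of the clock genes. The summed FPKM of 10 skeletal muscle markers was 136 in WT_1, 24.8 in WT_2, 77.8 in the library labelled TRKC+/- and 59.9 in AdNTF3-Tg, and 9 of the 10 were listed in WT_2, without *Myh1*. *Myl1* gave most of the WT_2 sum, and without it the sums were 102 in WT_1, 3.37 in WT_2, 47.2 in the library labelled TRKC+/- and 35.6 in AdNTF3-Tg. WT_2 was also lowest for the sums of 4 listed blood markers (65.2 against 88.0 to 172), 5 fibroblast markers (223 against 251 to 295) and 10 glial markers (967 against 1060 to 1132). The sum of 10 adipocyte markers was 503 in WT_1, 419.7 in WT_2, 315 in the library labelled TRKC+/- and 353 in AdNTF3-Tg, and that of 8 macrophage markers was 222, 204, 173 and 156. Endothelial markers (6) summed to between 28.95 and 33.97, the 11 sympathetic neuron markers to between 9489 and 10147, and the 5 sensory neuron markers to between 196 and 209, nearly all of it *Avil*. In the library labelled TRKC+/- only 4 of the 5 sensory markers were listed, without *Mrgprd*. The part of these other tissues in the clock gene values was not tested.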

How the data were processed

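RNA-seq of pooled T1 to T4 sympathetic ganglia was measured in 4 libraries. Per the labels and the study's methods, mRNA was enriched with oligo(dT), sequenced as single reads of 50 bases, filtered with SOAPnuke v1.5.2 and mapped with HISAT2 v2.0.4 to mm9, whereas the submitters' processing notes name RSEM and mm10. The tables that the authors deposited give, for each Entrez gene, an unnormalized expected count, which need not be whole, beside its FPKM. Symbols came from RefSeq (GRCm38.p6, names only), which matched 17619 identifiers (99.7%). Coordinates are on NCBIM37.

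Libraries were grouped by genotype. Ratios are log2 of FPKM + 0.1 for genes that all 4 libraries list, with the cutoff taken from the study. Expected counts were rounded and tested in edgeR 4.0.16 (R 4.3.3; TMM scaling, filterByExpr, glmQLFit on all 4 libraries). On simulated counts for the comparison of the library labelled TRKC+/- with WT (14064 genes), the test recovered 92 of 100 genes changed 2-fold and 100 of 100 changed 4-fold, with 10 unchanged genes called. The changed genes averaged at least 100 reads, more than *Cry1*, and every gene was given the same dispersion of 0.01. Changes as small as those of the clock genes, at most 1.67-fold between libraries, were not simulated, so their recovery is not known. Other pseudocounts (1 and 0.01), a filter of 1 FPKM, a cutoff of 1, other scalings, no filter, DESeq2 1.42.0 and leaving out each WT library were tried. The clock genes and the gene lists were chosen with earlier results of these data known. The text names all 10 clock genes and the genes of the 3 other clock lists, apart from 2 genes of those 3 lists that are not reported here and do not enter their counts; of the glucocorticoid, immediate early and temperature lists it names the 3 genes with most reads, and others where it says so, and marker lists are given by their sums. Depth was 8665955 to 8894985 reads per library, and 77 reads or more for each clock gene.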

Additional observations from a re-analysis of the deposited data

How the results depend on the processing

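Of 320 recomputed values of single clock genes, 200 were pairwise ratios with other pseudocounts or scalings. Each moved by less than the width of its counting interval. Values from edgeR with other scalings or no filter, and from DESeq2, were compared only by whether a gene was called. No clock gene was called under any of these settings, so that comparison could not show a shift. The other 40 leave out a WT library, a shift that the spread between the WT pools bounds by construction. They ranged, for example, from 0.005 to 0.53 for *Nr1d1* in the library labelled TRKC+/- and from -0.57 to -0.08 for *Dbp* in AdNTF3-Tg. Of the 200 pairwise ratios, 3 crossed the cutoff of 0.5: with a pseudocount of 1, *Per2* fell to 0.465 for the library labelled TRKC+/- over WT_2 and to 0.446 for AdNTF3-Tg over WT_2, and with 0.01 *Dbp* rose to 0.504 between the WT pools. Each library's phase contrast, taken from the mean of the 4 libraries, moved by less than the SD of the WT pools, but the span went from 0.171 to 0.266 without *Cry1*, and the difference between the library labelled TRKC+/- and WT_2 from 0.17 (-0.05 to 0.39) to 0.24 (0.01 to 0.47). No clock gene was called by edgeR with other scalings or without the filter, or by DESeq2. Leaving out a WT library left no residual degrees of freedom, so it gave values with no test. Counts of genes past the cutoff moved with the treatment of low values. For the library labelled TRKC+/- over WT_1 and WT_2, AdNTF3-Tg over WT_1 and WT_2, and WT_1 over WT_2, in that order, they were 1632, 1933, 2116, 2033 and 2044 as reported, 365, 592, 674, 580 and 633 with a pseudocount of 1, 624, 847, 999, 913 and 926 among genes of at least 1 FPKM, 381, 521, 516, 588 and 534 with a cutoff of 1, and 110, 208, 318, 217 and 251 among genes with at least 87 reads, an alternative chosen after the data were seen. The spread over the libraries was past the cutoff for 4437 genes as reported and for 1853, 2364 and 811 with the pseudocount of 1, the filter of 1 FPKM and the read minimum. With a cutoff of 1, 0 clock genes passed in each of the 4 pairs that had any, and the spread over the libraries had none. A pseudocount of 1 left 2 clock genes in place of 3 for the library labelled TRKC+/- over WT_2 and for the spread, and 0 for AdNTF3-Tg over WT_2, and 0.01 gave 2 between the WT pools.

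For the library labelled TRKC+/- edgeR called 2 genes with DESeq2's size factors (*Ucp1* and *Npcd*), 4 with library totals (also *Fabp4* and *Lpl*) and 0 without the filter, and DESeq2 called 2. For AdNTF3-Tg it called 5 with library totals (*Tmem254b*, *Gda*, *Npcd*, *Gm10052* and *Gm12191*). The cause of these changes was not tested. No paired analysis was possible because each genotype had 1 library and the groups share fewer than 2 replicate numbers. The control that the table names hint at would give 0 clock genes past the cutoff for the library labelled TRKC+/- (over WT_1) and 1 for AdNTF3-Tg (over WT_2). Depth limited the shallow genes most, *Cry1* with 77 to 102 reads among the clock genes and *Rora* with 1 to 7 beside them.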
